A study of Mus musculus with 4 samples.

Results

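The genes examined here belong to the ATF4 branch of the integrated stress response, together with the hepatokine gene Fgf21 that this branch can induce. The members were taken from a fixed list of 10 symbols. Of these, 9 were found by their exact name among the 25655 genes of the count table, namely Atf4, Atf5, Trib3, Chac1, Sesn2, Asns, Psat1, Phgdh and Fgf21. The tenth, Ddit3, is split in the table into a pair of overlapping entries, Ddit3_1 and Ddit3_2, which are described beside the 9 and not counted with them. Liver RNA from male mice was compared between genotypes with 2 libraries per group. ADAR2 is an enzyme that deaminates adenosine to inosine in double-stranded RNA. HFD-WT mice were ADAR2+/+ and HFD-KO mice were ADAR2-/-, and both groups carried the GluR-B R/R allele on a B6129S background and came from intercrosses of heterozygous animals. Both groups received the high-fat diet (HFD) for 12 weeks from an age of 5 weeks. The study gives more mice per group for its pathway analysis than there are libraries, and whether a library holds a single mouse or a pool is not given in the sources used here, so p-values measure the spread between these libraries only.

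In the integrated stress response, kinases that sense amino acid shortage, ER stress, mitochondrial stress, heme shortage or double-stranded RNA phosphorylate the translation factor eIF2. General translation is then reduced, while the Atf4 mRNA, which carries upstream open reading frames, is translated more. ATF4 is a transcription factor that pairs with C/EBP proteins on DNA and drives genes for amino acid synthesis and import, tRNA charging, glutathione handling and feedback inhibition. Because ATF4 is set largely at translation, the amount of its mRNA is not a measure of the protein. In liver, FGF21 is known as a secreted signal of nutrient stress whose gene is driven by ATF4 as well as by PPAR alpha.

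The recognition sequence of ATF4 with C/EBP proteins was looked for because it links several of these genes. RefSeq promoter windows on GRCm38.p6, from 250 bases before to 50 bases after a gene's start, were searched on both strands for TGATGNAA, the core of the C/EBP-ATF response element. It was present in windows of 4 of the 10 listed genes (4 of their 12 windows), compared with 3.97% of all 32851 windows. The matches are shown in 30 bases of context, in the direction of the gene, with the match in capitals. Those of Chac1, Trib3 and Fgf21 read on the opposite strand.
Fgf21: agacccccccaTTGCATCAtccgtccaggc
Asns: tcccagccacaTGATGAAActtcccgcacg
Chac1: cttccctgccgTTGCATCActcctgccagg
Trib3: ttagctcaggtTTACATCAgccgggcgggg
Counted from the start base as position 0, the match lay at -139 to -132 in Fgf21 (chr7:45615611-45615640, minus strand), -23 to -16 in Asns (chr6:7693214-7693243, minus strand), -193 to -186 in Chac1 (chr2:119351038-119351067, plus strand) and 14 to 21 in Trib3 (chr2:152344028-152344057, minus strand). The same letters occurred in promoters of 5 of 9 aminoacyl-tRNA synthetase genes and of 0 of 16 genes of the ATF6 and XBP1 arms of the unfolded protein response, against 4.51% of all genes with a window. Other lists around ATF4 had 3 of 7 partner factors, 2 of 6 amino acid transporters and 2 of 10 serine, one-carbon and proline enzymes. They also had 2 of 13 other target genes and 1 of 17 eIF2 genes. Among pancreatic acinar markers, a cell type list, it was 2 of 9. The cAMP response element TGACGTCA, in 1.79% of all windows, was in 0 of the 12 windows. A match describes letters in the genome and is not evidence of binding in these livers.

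The total count ranged from 24480798 to 28691330 per library, at which 3 counts correspond to between 0.105 and 0.123 CPM, a floor that covers counting error only. Adarb1, which encodes ADAR2, had 15.7 and 19.8 CPM in HFD-WT and 6.23 and 9.55 CPM in HFD-KO livers (difference of -1.17 on the log2 scale with a standard error, SE, of 0.20, edgeR adjusted p = 0.159), and it passed the adjusted threshold with no filter on low counts (adjusted p = 0.0025), with a replicate block (adjusted p = 0.040) and by DESeq2 (adjusted p = 0.00064). Reads of this targeted gene were still counted in both HFD-KO libraries. The 8 hepatocyte markers were abundant in every library. CPM here is the read count relative to a library size scaled by TMM, and fold changes are HFD-KO over HFD-WT from edgeR's quasi-likelihood test, fitted over 12967 genes, with Benjamini-Hochberg adjustment over all of them. The smallest p that exact permutation of 2 against 2 libraries allows for a single gene is 0.333, so no such test was run.

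All 9 genes were expressed, and their levels differed widely. To compare genes with each other, the authors' RPKM (reads scaled to exon length and library size) was used. Atf5, a transcription factor linked to mitochondrial stress, was the highest with a median of 199 RPKM over the 4 libraries. Atf4 followed with 42.9 RPKM, and the ranges of these 2 genes did not overlap each other or that of any other member. Next came Fgf21 with 17.3 RPKM, Ddit3_1 with 10.04 RPKM and Trib3 with 7.51 RPKM, whose ranges overlapped from each neighbour to the next. Sesn2 had 3.95 RPKM and Chac1 3.04 RPKM, again with overlapping ranges. The lowest levels were those of the amino acid synthesis enzymes, with 0.771 RPKM for Asns, 0.724 RPKM for Psat1 and 0.206 RPKM for Phgdh. Serine and asparagine synthesis genes were thus measured from few reads, between 8 and 16 reads per library for Phgdh.

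**Figure D1:**
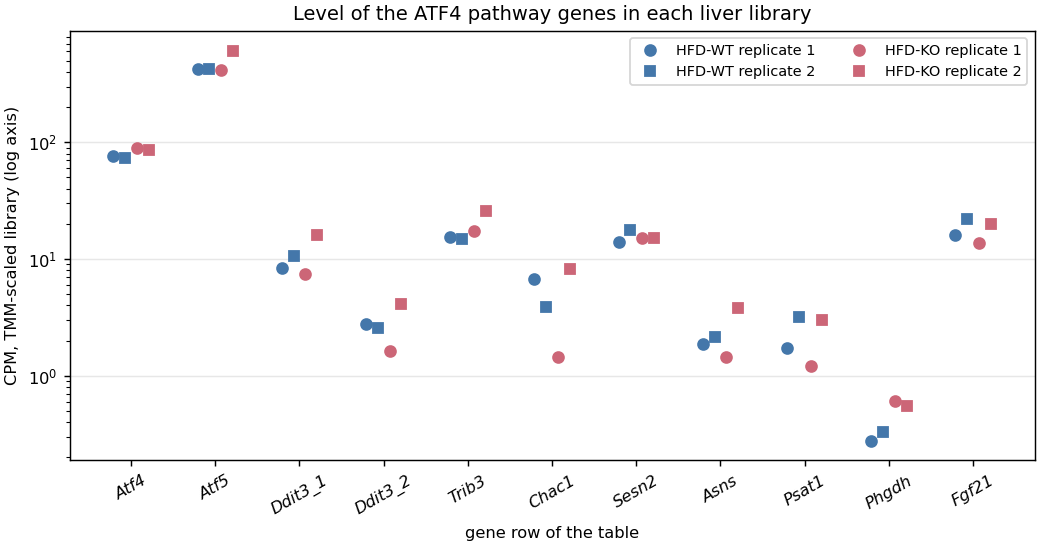
Level of each gene in each library in CPM (log axis), with HFD-WT in blue, HFD-KO in red, replicate 1 as circles and replicate 2 as squares. Atf4, Trib3 and Phgdh are the genes whose 2 HFD-KO points both lie above both HFD-WT points, while HFD-KO replicate 2 lies above replicate 1 for Atf5, Ddit3_1, Ddit3_2, Trib3, Chac1, Asns, Psat1 and Fgf21.

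Whether the loss of ADAR2 altered this pathway under the HFD was examined by comparing genotypes. At an adjusted p under 0.05 by edgeR, 0 of the 9 genes differed between the genotypes, against 0.0771% of all genes tested. Before adjustment, Atf4 and Trib3 were higher in HFD-KO livers with a p under 0.05, 2 of the 9 against 4.25% of all genes, and 0 were lower, against 4.73%. DESeq2's Wald test, which gave Phgdh no adjusted p, called 0 of the other members at the adjusted and 2 of the 9 at the unadjusted threshold. The share at the latter was 3.91% in either direction, out of 17301 genes that include those removed by the edgeR filter. Both HFD-KO values lay above both HFD-WT values for 3 genes, Atf4, Trib3 and Phgdh, against 20.5% of all genes, and 0 genes showed the opposite, against 20.3%. The median log2 fold change was 0.23 over the 9 genes and 0.01 over all genes tested, but the former moved to -0.07 without HFD-KO replicate 2 and to 0.52 without HFD-KO replicate 1.

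Among the transcription factors, Atf4 (ENSMUSG00000042406, chromosome 15 from 80139385 to 80141742 on GRCm39, plus strand) had 76.1 and 72.7 CPM in HFD-WT and 88.8 and 85.3 CPM in HFD-KO livers. The groups did not overlap, and the replicates of each lay close together. The log2 fold change was 0.23 (SE 0.080, 95% interval 0.04 to 0.41, unadjusted p = 0.0234, edgeR adjusted p = 0.473), and leaving out single libraries gave 0.20 to 0.26. The difference was thus small in size, and it missed the adjusted threshold in the fit of all 4 libraries and in every alternative setting.

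Atf5 (ENSMUSG00000038539, chromosome 7 from 44461680 to 44466082, minus strand), which is translated under stress by a mechanism like that of Atf4, had 419.9 and 425 CPM in HFD-WT and 412 and 607 CPM in HFD-KO livers. HFD-KO replicate 1 lay below both HFD-WT libraries and replicate 2 far above them. The log2 fold change of 0.27 (SE 0.17, 95% interval -0.12 to 0.66, edgeR adjusted p = 0.683) became -0.04 without HFD-KO replicate 2 and 0.52 without HFD-KO replicate 1, where the adjusted p was 0.00021.

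Ddit3 encodes CHOP, a partner of C/EBP proteins that promotes cell death when stress persists. Its longer entry, Ddit3_1 (ENSMUSG00000025408, chromosome 10 from 127126643 to 127132157, plus strand), had 8.32 and 10.7 CPM in HFD-WT and 7.48 and 16.04 CPM in HFD-KO livers, and its log2 fold change was 0.30 (SE 0.32, edgeR adjusted p = 0.817). The shorter Ddit3_2 (ENSMUSG00000116429, from 127126698 to 127129622) had 2.80 and 2.54 CPM in HFD-WT and 1.63 and 4.10 CPM in HFD-KO livers, and its log2 fold change was 0.09 (SE 0.40, edgeR adjusted p = 0.968). In both entries HFD-KO replicate 1 was the lowest of the 4 libraries and replicate 2 the highest. How reads shared by the entries were divided is not given in the sources used here, and the 3′ end of Ddit3_1 also overlaps Mars1 on the other strand, so each value is uncertain. Summed into 1 gene, an alternative chosen after seeing the data, they gave a log2 fold change of 0.26 (SE 0.32, edgeR adjusted p = 0.847).

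Trib3, Chac1 and Sesn2 carry out or restrain the response. Trib3 (ENSMUSG00000032715, chromosome 2 from 152179342 to 152185952, minus strand), a pseudokinase that binds ATF4 and AKT and damps both, had 15.5 and 14.7 CPM in HFD-WT and 17.5 and 25.9 CPM in HFD-KO livers. Both HFD-KO libraries were higher than both HFD-WT libraries, replicate 2 by more. The log2 fold change was 0.52 (SE 0.17, 95% interval 0.12 to 0.93, unadjusted p = 0.0187, edgeR adjusted p = 0.445). Without HFD-KO replicate 2 it was 0.21, and without HFD-KO replicate 1 it was 0.78 with an adjusted p of 5.3e-05.

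Chac1 (ENSMUSG00000027313, chromosome 2 from 119181710 to 119184862, plus strand), an enzyme that breaks down glutathione, had 6.70 and 3.89 CPM in HFD-WT and 1.44 and 8.16 CPM in HFD-KO livers. The HFD-KO group thus held both the lowest and the highest value, from 38 and 195 reads. Its group means were 5.29 ± 1.99 CPM (SD, n = 2) for HFD-WT and 4.80 ± 4.75 CPM for HFD-KO, and the log2 fold change was -0.16 (SE 0.64, 95% interval -1.65 to 1.34, edgeR adjusted p = 0.965). It was -1.88 without HFD-KO replicate 2, where the adjusted p was 0.00043, 0.62 without HFD-KO replicate 1 and 0.29 without HFD-WT replicate 1, so its direction rested on which libraries of either genotype were used.

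Sesn2 (ENSMUSG00000028893, chromosome 4 from 132219343 to 132237812, minus strand), a leucine sensor that restrains mTORC1, had 14.1 and 17.8 CPM in HFD-WT and 15.12 and 15.07 CPM in HFD-KO livers. The HFD-KO values lay between the HFD-WT values, and the log2 fold change was -0.08 (SE 0.13, 95% interval -0.37 to 0.22, edgeR adjusted p = 0.894). The interval leaves room for a small difference in either direction.

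For the amino acid synthesis enzymes, Asns (ENSMUSG00000029752, chromosome 6 from 7675169 to 7693254, minus strand), which makes asparagine, had 1.86 and 2.14 CPM in HFD-WT and 1.44 and 3.81 CPM in HFD-KO livers. Psat1 (ENSMUSG00000024640, chromosome 19 from 15882042 to 15924701, minus strand), an aminotransferase of serine synthesis, had 1.73 and 3.20 CPM in HFD-WT and 1.22 and 3.01 CPM in HFD-KO livers. Both genes were lowest in HFD-KO replicate 1, and the groups overlapped. The log2 fold change was 0.38 for Asns (SE 0.43, 95% interval -0.63 to 1.38, edgeR adjusted p = 0.836). It was -0.23 for Psat1 (SE 0.46, 95% interval -1.31 to 0.86, edgeR adjusted p = 0.918), and both changed sign when a library was left out.

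Phgdh (ENSMUSG00000053398, chromosome 3 from 98220486 to 98247306, minus strand), the first enzyme of serine synthesis, had 8 and 9 reads in HFD-WT and 16 and 13 reads in HFD-KO livers, or 0.276 and 0.327 CPM and 0.608 and 0.544 CPM. The groups did not overlap, but the log2 fold change of 0.93 was imprecise (SE 0.47, 95% interval -0.18 to 2.03, unadjusted p = 0.0875, edgeR adjusted p = 0.630). No difference was called, and the parts of read depth and of the number of libraries in this were not tested.

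Fgf21 (ENSMUSG00000030827, chromosome 7 from 45263310 to 45264914, minus strand) had 15.9 and 22.0 CPM in HFD-WT and 13.7 and 20.0 CPM in HFD-KO livers, from 460, 605, 360 and 478 reads. In each genotype replicate 2 was higher than replicate 1, and the groups overlapped. The group means were 18.9 ± 4.3 CPM (SD, n = 2) for HFD-WT and 16.8 ± 4.5 CPM for HFD-KO. The log2 fold change was -0.17 (SE 0.21, 95% interval -0.65 to 0.31, edgeR adjusted p = 0.846), and leaving out single libraries gave -0.47 to 0.08. Among 11764 genes with a mean of at least 1 CPM, the profiles nearest to that of Fgf21 over the 4 libraries, on centred log2 values with 0.5 CPM added, were those of Cemip2, Aqp4 and Ccdc149, with root mean square differences of 0.025, 0.038 and 0.048. Over 4 libraries such likeness is a description only.

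**Figure D2:**
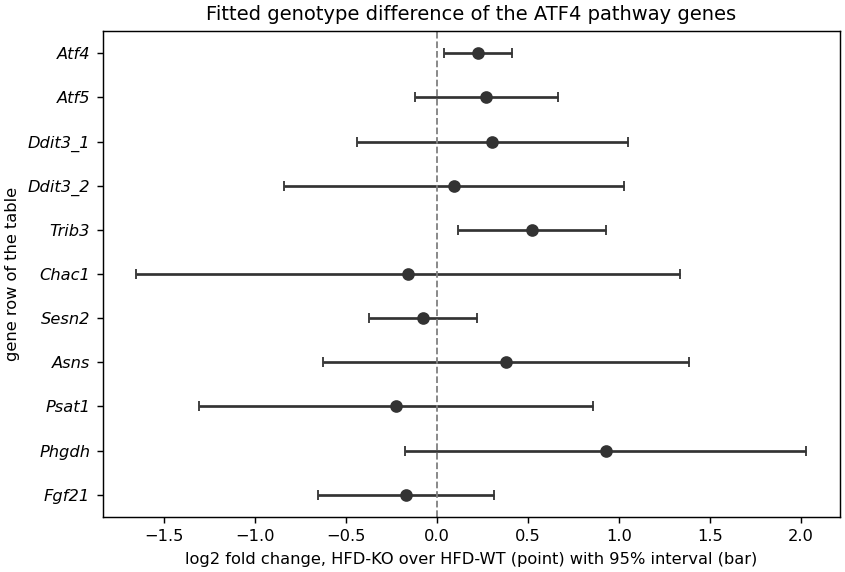
Fitted log2 fold change of HFD-KO over HFD-WT livers (points) with its 95% interval (bars) for each gene. The intervals of Atf4 (0.04 to 0.41) and Trib3 (0.12 to 0.93) lie above 0 before adjustment over all genes, and those of the other genes include 0.

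Since the HFD-KO libraries lay far apart for several targets, the 2 libraries of each genotype were set side by side. HFD-KO replicate 2 was at least 2-fold higher than replicate 1 for 3 of the 9 genes, Chac1, Asns and Psat1, against 1.67% of all genes tested, and for both entries of Ddit3. The opposite 2-fold difference was found for 0 of the 9, against 2.38% of all genes. Within HFD-WT, 0 of the 9 genes differed 2-fold with replicate 2 higher, against 1.15%, and 0 with replicate 1 higher, against 1.01%. In direction alone the counts were equal, since 6 of the 9 genes were higher in replicate 2 than in replicate 1 within HFD-KO, against 49.2% of all genes, and 6 of the 9 within HFD-WT, against 50.2%. The 6 lists of upstream factors, partners and targets described below held 73 tested genes. Of these, 1 was at least 2-fold higher in HFD-KO replicate 2 than in replicate 1, and 0 showed the opposite. Their median ratio of HFD-KO replicate 2 to replicate 1 was 1.02. These counts compare libraries and not genotypes.

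Chac1 showed the largest ratio, 5.66 for HFD-KO replicate 2 over replicate 1 (95% exact interval 3.98 to 8.23, counting error only), whereas in HFD-WT the ratio of replicate 2 to replicate 1 was 0.581 (0.454 to 0.739). The ratio in HFD-KO was 2.64 for Asns (1.79 to 3.96) and 2.48 for Psat1 (1.61 to 3.89), and Psat1 also differed within HFD-WT, by 1.85 (1.30 to 2.68). Ddit3_1 had a ratio of 2.14 (1.80 to 2.56) and Ddit3_2 of 2.51 (1.74 to 3.68). Trib3 and Atf5 had ratios of 1.48 (1.31 to 1.68) and 1.47 (1.44 to 1.51) in HFD-KO, and of 0.949 (0.828 to 1.09) and 1.01 (0.987 to 1.04) in HFD-WT. By contrast, Atf4 mRNA itself had a ratio of 0.960 (0.905 to 1.02) in HFD-KO, and Sesn2 one of 0.997 (0.862 to 1.15). Fgf21 was higher in replicate 2 of both genotypes, by 1.46 (1.27 to 1.68) in HFD-KO and 1.38 (1.22 to 1.57) in HFD-WT.

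**Figure D3:**
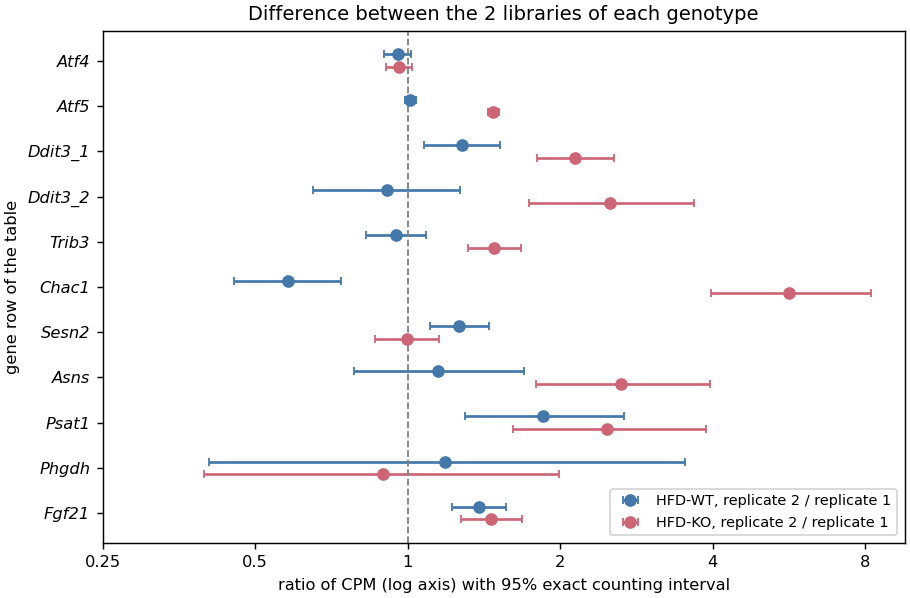
Ratio of the CPM of replicate 2 to that of replicate 1 within HFD-WT (blue) and within HFD-KO (red) on a log axis, with 95% exact intervals for counting error. In HFD-KO the ratio is 5.66 for Chac1 and above 2 for Asns, Psat1 and both Ddit3 entries, while that of Atf4 is 0.960.

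The choice of HFD-KO library therefore decided which genes passed the test. Without HFD-KO replicate 1, Atf5 and Trib3 were higher with an edgeR adjusted p under 0.05, 2 of the 9 against 2.83% of all genes, and 0 were lower, against 2.48%. Ddit3_1, outside that count, was also higher there, with a log2 fold change of 0.76 and an edgeR adjusted p of 0.0016. Without HFD-KO replicate 2, 0 were higher, against 1.69%, and Chac1 was lower, 1 of the 9 against 1.39%. In these fits the lone HFD-KO library is assumed to vary like the HFD-WT libraries.

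Marker lists of several other cell types also differed between these libraries. The list of 7 endothelial cell markers changed little. It summed to 237 and 261 CPM in HFD-WT and to 230 and 247 CPM in HFD-KO livers, with 1 gene lower in both HFD-KO libraries. The summed level of 5 red blood cell markers was 757 and 600 CPM in HFD-WT and 811 and 1146 CPM in HFD-KO livers, with 4 of the 5 genes higher in both HFD-KO libraries, against 20.5% of all genes. For 8 hepatocyte markers the sum was 86640 and 89411 CPM in HFD-WT and 86385 and 108776 CPM in HFD-KO livers. A single hepatocyte marker reached 66104 CPM, so the sum in that library was mostly 1 gene. For 8 B, plasma and T cell markers it was 11.5 and 9.02 CPM in HFD-WT and 52.0 and 10.5 CPM in HFD-KO livers, so that HFD-KO replicate 1 stood apart. The 9 macrophage markers summed to 359 and 448 CPM in HFD-WT and to 287 and 273 CPM in HFD-KO livers, 7 of them lower in both HFD-KO libraries, against 20.3% of all genes. The 6 stellate cell markers summed to 302 and 337 CPM in HFD-WT and to 274 and 208 CPM in HFD-KO livers, with 4 lower in both HFD-KO libraries. The 5 cholangiocyte markers summed to 71.5 and 90.5 CPM in HFD-WT and to 59.4 and 50.04 CPM in HFD-KO livers, with 1 lower in both. A single cholangiocyte marker reached 83.9 CPM in HFD-WT replicate 2, so the sum there was mostly 1 gene. Single markers also reached 202 CPM on the stellate cell list and 32.7 CPM on the B, plasma and T cell list. The part of these differences in the results above was not tested, and in bulk tissue fewer cells of a type and less RNA per cell cannot be told apart. Pancreatic acinar cells express several of the 9 genes strongly, and their 9 markers summed to between 0.0691 and 0.754 CPM, with 2 of them at 0 reads in all 4 libraries.

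The rest of the pathway was described with 6 lists of upstream factors, partners and targets, which held 79 genes of the table, 73 of them tested. With the adjusted threshold 0 differed by edgeR and 1 by DESeq2, Vegfa. Before adjustment 6 were higher and 2 were lower by edgeR, against 4.25% and 4.73% of all genes, and 37 of the 73 had a positive log2 fold change, with a median of 0.00. Upstream, 21 genes of the eIF2 kinases, eIF2, eIF2B and the eIF2 phosphatase were tested, and 1 was higher at an unadjusted p under 0.05. This was Ppp1r15a, whose product GADD34 directs the phosphatase that reverses eIF2 phosphorylation, with 12.6 and 14.4 CPM in HFD-WT and 15.7 and 17.3 CPM in HFD-KO livers (log2 fold change 0.29, SE 0.11, edgeR adjusted p = 0.507).

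Of 8 transcription factors that pair with ATF4 or act after it, 2 were higher and 1 was lower at an unadjusted p under 0.05. The shares of all genes at that threshold were 4.25% higher and 4.73% lower. Fos and Jun, the subunits of AP-1, had log2 fold changes of 0.68 (SE 0.15, edgeR adjusted p = 0.233) and 0.38 (SE 0.12, edgeR adjusted p = 0.444). Fos had 4.87 and 5.53 CPM in HFD-WT and 8.24 and 8.42 CPM in HFD-KO livers. Jdp2, a repressor that competes with AP-1, had 2.59 and 4.36 CPM in HFD-WT and 1.56 and 1.63 CPM in HFD-KO livers (log2 fold change -1.12, SE 0.31, edgeR adjusted p = 0.363).

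Of 7 tested amino acid transporters, 1 was higher and 1 was lower at an unadjusted p under 0.05, against 4.25% and 4.73% of all genes. Slc38a2, the neutral amino acid carrier SNAT2, had 75.1 and 94.2 CPM in HFD-WT and 101 and 107 CPM in HFD-KO livers (log2 fold change 0.30, SE 0.12, edgeR adjusted p = 0.510). Slc6a9, a glycine transporter, had 59.1 and 64.5 CPM in HFD-WT and 47.7 and 46.3 CPM in HFD-KO livers (log2 fold change -0.40, SE 0.085, edgeR adjusted p = 0.233). Slc7a11, the cystine carrier, was counted with 3 to 9 reads per library and was not tested.

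Among 12 aminoacyl-tRNA synthetase genes, 4 had a positive and 8 a negative log2 fold change, and 0 reached p under 0.05 by edgeR before adjustment. Of all genes tested, 4.25% were higher and 4.73% lower at that threshold. The smallest p of a synthetase gene was that of Yars, with a log2 fold change of -0.12 (SE 0.085, edgeR adjusted p = 0.723). Of 10 tested enzymes of serine, folate and proline metabolism, Cbs, which makes cystathionine from homocysteine, was higher at an unadjusted p under 0.05, with 342 and 298 CPM in HFD-WT and 355 and 449 CPM in HFD-KO livers (log2 fold change 0.33, SE 0.13, edgeR adjusted p = 0.516). Of 15 tested other targets of ATF4 and CHOP, Vegfa, the angiogenic growth factor, was higher at an unadjusted p under 0.05, with 96.6 and 87.1 CPM in HFD-WT and 117 and 145 CPM in HFD-KO livers. Its log2 fold change was 0.51 (SE 0.12), with an adjusted p of 0.262 from edgeR and of 0.0295 from DESeq2.

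For comparison, 20 genes of the ATF6 and XBP1 arms of the unfolded protein response, which ER stress activates beside the PERK and ATF4 arm, had a median log2 fold change of 0.14. Of these, 19 had a positive log2 fold change, and the share of all genes with a positive one is not given here. The median over all genes tested was 0.01. The 20 genes summed to 3576 and 4017 CPM in HFD-WT and to 3896 and 4815 CPM in HFD-KO livers. The sum in HFD-KO replicate 1 thus lay between those of the HFD-WT libraries. At an unadjusted p under 0.05 by edgeR, 2 (Pdia4 and Sdf2l1, both ER folding factors) were higher, against 4.25% of all genes. At that threshold 0 were lower, against 4.73%. Both HFD-KO libraries lay above both HFD-WT libraries for 4 of the 20, against 20.5% of all genes, and below them for 0, against 20.3%. Replicate 2 was higher than replicate 1 for 17 of the 20 within HFD-KO and for 18 within HFD-WT, against 49.2% and 50.2% of all genes. Sdf2l1 had 8.91 and 11.9 CPM in HFD-WT and 13.5 and 23.7 CPM in HFD-KO livers (log2 fold change 0.83, SE 0.26, edgeR adjusted p = 0.416). Among 10 mitochondrial stress chaperones and proteases 0 had an unadjusted p under 0.05, 7 had a negative log2 fold change, 5 had both HFD-KO libraries below both HFD-WT libraries (Lonp1, Yme1l1, Afg3l2, Spg7 and Trap1, named after their values were seen) and 1 had both above, against 20.3% and 20.5% of all genes, and the smallest p was that of Clpp, a matrix protease (log2 fold change 0.14, SE 0.091, edgeR adjusted p = 0.702).

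The receptors and regulators of FGF21 were 14 genes, of which 4 were higher at an unadjusted p under 0.05 and 0 lower, against 4.25% and 4.73% of all genes. Klb encodes beta-klotho, the coreceptor that FGF21 requires, and had 24.2 and 18.7 CPM in HFD-WT and 25.8 and 35.4 CPM in HFD-KO livers (log2 fold change 0.51, SE 0.17, edgeR adjusted p = 0.451). Fgfr4, the main FGF receptor of hepatocytes, had 32.5 and 33.4 CPM in HFD-WT and 39.5 and 40.8 CPM in HFD-KO livers (log2 fold change 0.29, SE 0.080, edgeR adjusted p = 0.369). Mlxipl, which encodes the glucose-sensing factor ChREBP, and Nr1d1, which encodes the clock repressor REV-ERB alpha, had log2 fold changes of 0.26 (SE 0.097, edgeR adjusted p = 0.493) and 0.47 (SE 0.11, edgeR adjusted p = 0.257), and DESeq2 gave Nr1d1 an adjusted p of 0.0336. Of the 14 genes, these 4 had both HFD-KO libraries above both HFD-WT libraries and 2, Fgfr3 and Hdac3, had both below, against 20.5% and 20.3% of all genes. The last 2 were named after their values were seen, and Fgf21 itself overlapped between the groups.

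Because Fgf21 and several ATF4 targets respond to feeding, 15 fasting and feeding genes were read from the same fit. At an unadjusted p under 0.05 by edgeR, 3 were higher, against 4.25% of all genes, and 2 were lower, against 4.73%. The higher genes were the PPAR alpha targets Cyp4a14 and Acot1 and the insulin-repressed Igfbp1, and the lower genes were Fasn and Lpin1. Both HFD-KO libraries lay above both HFD-WT libraries for 4 of the 15, against 20.5% of all genes. They lay below them for 5, against 20.3%. Igfbp1 had 48.3 and 68.9 CPM in HFD-WT and 93.6 and 293 CPM in HFD-KO livers, with HFD-KO replicate 2 the highest, as for Chac1 and Asns (log2 fold change 1.72, SE 0.46, edgeR adjusted p = 0.358). Lpin1, a phosphatidate phosphatase, had 162 and 334 CPM in HFD-WT and 98.5 and 112 CPM in HFD-KO livers (log2 fold change -1.24, SE 0.29, edgeR adjusted p = 0.268). Cyp4a14 and Acot1 had log2 fold changes of 0.50 (SE 0.15, edgeR adjusted p = 0.400) and 0.51 (SE 0.092, edgeR adjusted p = 0.172), with DESeq2 adjusted p of 0.0394 and 0.0074, and Fasn one of -0.40 (SE 0.15, edgeR adjusted p = 0.507). Leaving out single libraries gave 0.68 (without HFD-KO replicate 2) to 2.32 (without HFD-KO replicate 1) for Igfbp1 and -0.62 (without HFD-WT replicate 2) to -1.67 (without HFD-WT replicate 1) for Lpin1. With no filter on low counts the adjusted p by edgeR was 0.0216 for Igfbp1, 0.0101 for Lpin1 and 0.024 for Acot1. The part of feeding state in the values of Fgf21 and the ATF4 targets was not tested.

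**Figure D4:**
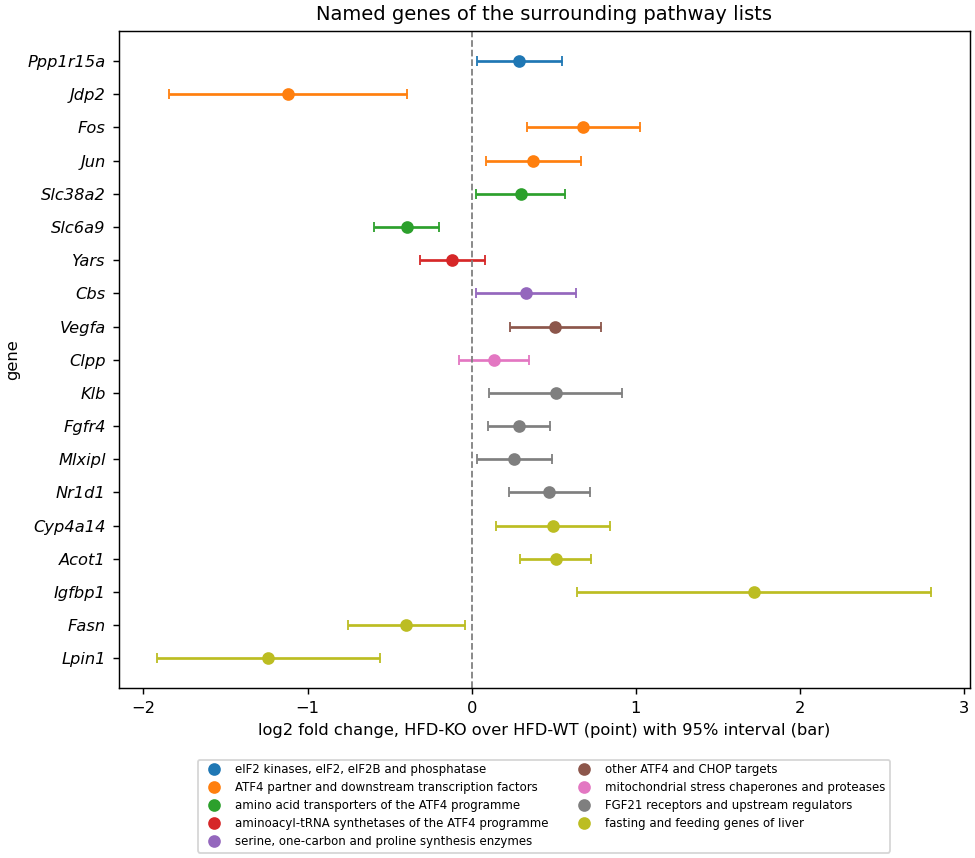
Log2 fold change of HFD-KO over HFD-WT livers (points) with 95% intervals (bars) for the genes of the surrounding lists with an unadjusted p under 0.05 or, for Yars and Clpp, the smallest p of their list, coloured by list, with the ATF6 and XBP1 list not drawn. Igfbp1 at 1.72 and Lpin1 at -1.24 lie farthest from 0 in the fit of all 4 libraries, and all genes shown had an adjusted p above 0.05 by edgeR.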

How the data were processed

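PolyA RNA of liver was made into directional MGIEasy libraries by the authors and sequenced on a DNBSEQ-G400RS. Reads were aligned with the MGI Tech tool, and genes of GENCODE were quantified in Partek Genomics Suite. Tool versions, use of strand and treatment of multiply aligned reads are not given in the sources used here. The methods name mm10, whereas the table's gene positions are those of GRCm39. The deposited counts are whole reads per gene and were the values tested. The authors' RPKM served to compare levels between genes, and the deposited TPM and the deposited CPM, a score on an adjusted library size, were not used.

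Groups came from the sample titles. The fit over all genes used edgeR 4.0.16 under R 4.3.3 (filterByExpr, TMM, quasi-likelihood test, two-sided), with DESeq2 1.42.0 as an alternative, and the procedure was tested on simulated data. Intervals of ratios are exact binomial (scipy 1.17.1). The members and lists were chosen with earlier results of these data known. Named were the 9 members and Ddit3, Adarb1, the 3 genes with profiles nearest to Fgf21 and, from each pathway list, genes with an unadjusted p under 0.05 or else the smallest p. Synthetase genes were matched by identifier where the table uses older symbols, and 12 of 13 were found. A member of the fasting and feeding list is not reported here and is left out of its counts. Promoter sequences are RefSeq's.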

Additional observations from a re-analysis of the deposited data

How the results depend on the processing

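With 2 libraries per genotype and few reads on Phgdh, Asns and Psat1, depth and replication limit these results. Settings other than leaving out a library gave 0 of the 9 genes an adjusted p under 0.05. Over all genes, 7 were higher and 3 lower at that threshold, with 4 higher under library size alone, 4 higher under a minimum mean of 1 CPM, 81 and 81 with no filter on low counts, 57 and 60 with DESeq2's Wald test and 12 and 8 with the replicate number as a block. When each library was left out the counts ranged from 0 to 376 higher and from 0 to 329 lower, the lowest without HFD-WT replicate 2 and the highest without HFD-KO replicate 1. For the 9 genes the ranges were 0 to 2 higher and 0 to 1 lower at an adjusted p, and 0 to 4 higher and 0 to 3 lower at an unadjusted p under 0.05, where library size alone gave 1 higher (Trib3). For the 6 pathway lists they were 0 to 9 higher and 0 to 1 lower at an adjusted p, and 3 to 14 higher and 1 to 6 lower at an unadjusted p. At both thresholds the highest count of higher genes in these lists came without HFD-KO replicate 1, with a lone HFD-KO library. The share of all genes called higher at an adjusted p in that fit is given above. In the same lists, no filter and DESeq2 each gave 1 higher at an adjusted p, and the unadjusted count was 10 higher with no filter and 3 with library size alone. Unadjusted shares of all genes are not given for the leave-out, no-filter and library-size fits. The unadjusted counts in those fits were therefore not compared with all genes. The median log2 fold change of the 9 genes was 0.0753 with a minimum of 1 CPM, which leaves out Phgdh, and -0.0735 to 0.52 when a library was left out. With the plain library size Atf5 had a mean of 429 CPM in HFD-WT and Sesn2 14.9 CPM in HFD-KO.

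Log2 fold changes that changed sign when a library was left out ranged from -0.0369 to 0.52 for Atf5, -0.34 to 0.76 for Ddit3_1, -0.71 to 0.62 for Ddit3_2, -1.88 to 0.62 for Chac1, -0.24 to 0.11 for Sesn2, -0.47 to 0.93 for Asns, -1.01 to 0.30 for Psat1, -0.47 to 0.0846 for Fgf21, -0.49 to 0.0534 for Cemip2, -0.46 to 0.17 for Aqp4 and -0.48 to 0.25 for Ccdc149. The cause was not tested. With the replicate block Ddit3_2 was at -0.0018. The numbers are shared but not described as a pairing, same-numbered libraries deviated with a correlation of -0.08 across genes, and the block changed no call among the 9 genes at an adjusted p under 0.05.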

Other observations

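Of the surrounding lists, 6 genes of the ATF4 programme were below the filter on low counts and so were not tested. The 3 described first were chosen after their values were seen. Of the 73 tested genes of the 6 pathway lists, 1 was at least 2-fold higher in HFD-KO replicate 2 than in replicate 1. Aldh1l2, a mitochondrial folate enzyme, had 9 and 9 reads in HFD-WT and 9 and 42 reads in HFD-KO livers, a ratio of 5.14 for HFD-KO replicate 2 over replicate 1 (95% exact interval 2.47 to 12.0, counting error only). Stc2, a secreted stress glycoprotein, had 4 and 8 reads in HFD-WT and 5 and 29 reads in HFD-KO livers, a ratio of 6.39 (2.45 to 21.2). Adm2, a peptide of the adrenomedullin family, had 37 reads in HFD-KO replicate 2 and 0 reads in the other 3 libraries. The other 3 had no such difference beyond counting error. Slc7a11 had 7 and 8 reads in HFD-KO livers, Slc7a3 had 1 and 1, and Pycr1, a proline synthesis enzyme, had 3 and 8, a ratio of 2.94 (0.705 to 17.2).

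Gdf15, a stress hormone gene often measured beside Fgf21, did not follow this order. It had 70.65 and 70.64 CPM in HFD-WT and 128 and 72.6 CPM in HFD-KO livers, with HFD-KO replicate 1 the highest (log2 fold change 0.51, standard error 0.23, edgeR adjusted p = 0.573). Atf3 and Nupr1, transcription factor genes that ATF4 can induce, had HFD-KO ratios of replicate 2 to replicate 1 of 1.72 (1.41 to 2.10) and 1.65 (1.23 to 2.23), and Mthfd2 had one of 1.62 (1.04 to 2.55). The same ratios in HFD-WT were 1.47 (1.22 to 1.77) for Atf3, 1.14 (0.874 to 1.48) for Nupr1 and 1.10 (0.774 to 1.57) for Mthfd2.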
